A study of Mus musculus with 6 samples.

Results

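The regulators of G-protein signalling (RGS) described here are 8 genes, Rgs1, Rgs2, Rgs3, Rgs10, Rgs14, Rgs16, Rgs18 and Rgs19, taken by name from the 55487 genes measured. Each was matched to 1 gene identifier, and 8 of 8 passed the filter on low counts. RNA came from wild-type (WT) C57BL6/J mice, from all hematopoietic cells that carried the leukocyte antigen CD45 in the spleen or in the gut-draining mesenteric lymph node (mLN). No age is given, and the treatment label of both groups says only that the cells were freshly prepared. There were 3 spleen and 3 mLN libraries of polyA RNA, with 12584244 to 18119551 expected counts each. Whether the libraries of a tissue represent different animals is not labelled. The spread that p-values measure is therefore that between these libraries only, and may be technical.

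Leukocytes find their way with receptors for chemokines, lipids and nucleotides that act through heterotrimeric G proteins. An RGS protein binds the activated G alpha subunit and speeds its GTP hydrolysis, so that the signal ends sooner. The family is best known in lymphoid tissue for limiting how strongly B and T cells respond to chemokines, and in platelets for restraining activation.

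Of the 8 RGS genes, 4 were higher in mLN (Rgs10, Rgs1, Rgs3 and Rgs14), 3 were lower (Rgs18, Rgs16 and Rgs2) and Rgs19 did not pass the test. Rgs10 rose 2.92-fold, Rgs18 was 4.0-fold lower in mLN, and the other called members differed by between 1.15-fold and 1.70-fold. The test was edgeR's quasi-likelihood F-test, and a gene was called at a Benjamini-Hochberg adjusted p under 0.05 over all 14427 genes tested. In that test 45.5% of all genes were called in either direction, 21.8% higher and 23.8% lower in mLN. The members thus stood above the background with 7 of 8 called, but were named with earlier results of these data known. The median log2 fold change was 0.08 for the members and -0.00179 for all tested genes.

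**Figure D1:**
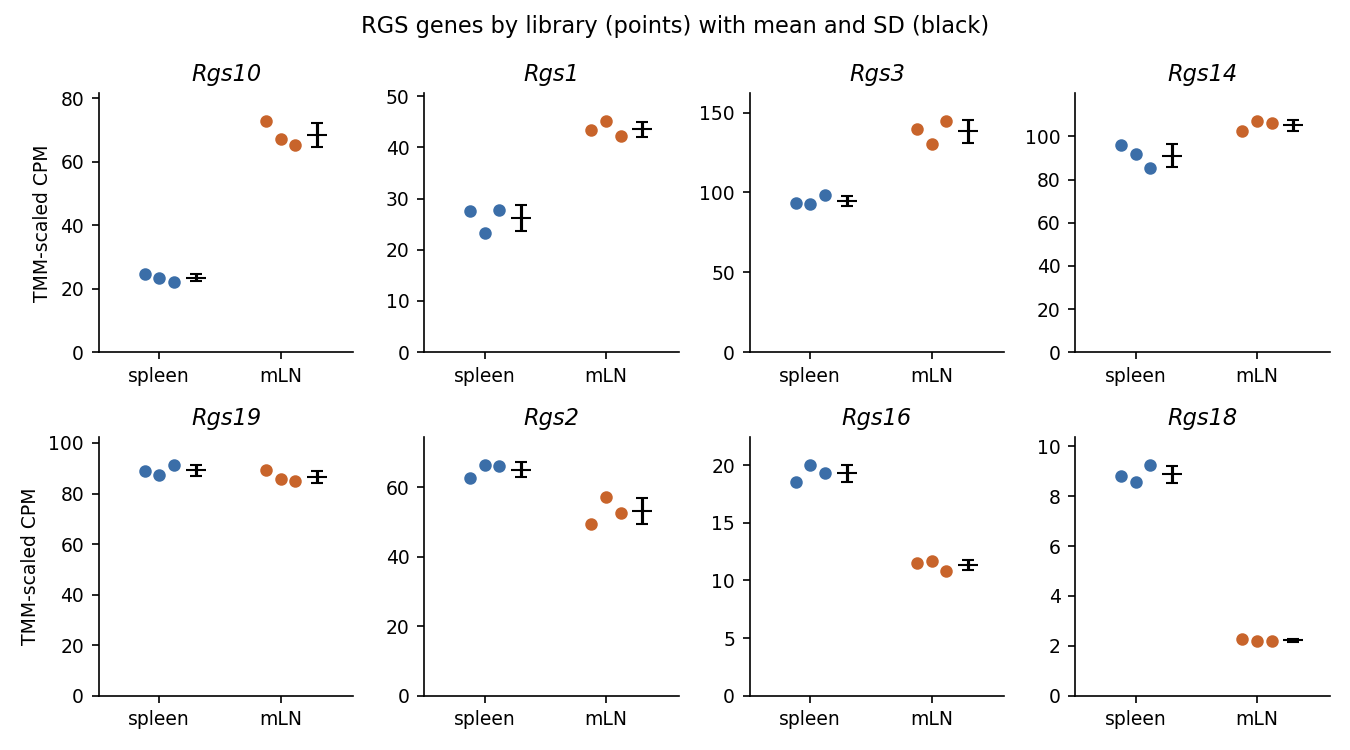
TMM-scaled CPM (counts per 1000000) of each RGS gene in the 3 spleen (blue) and 3 mLN (orange) libraries, with mean and SD in black. The order is by fold change, from Rgs10, with 65.3 to 72.7 CPM in mLN above 22.2 to 24.5 CPM in spleen, to Rgs18, with at most 2.27 CPM in mLN.

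Rgs10, a small RGS protein of the R12 class that is abundant in leukocytes and microglia (chromosome 7, 128373621 to 128418758, GRCm38), made the largest rise. Its TMM-scaled counts per 1000000 (CPM) were 24.5, 23.5 and 22.2 in spleen and 72.7, 67.1 and 65.3 in mLN. The lowest mLN library lay far above the highest spleen library, and the means were 23.4 ± 1.16 and 68.4 ± 3.86 CPM (SD, n = 3 each). The log2 fold change was 1.55 (SE 0.0741, edgeR adjusted p = 3.19e-21). In bulk RNA of sorted CD45+ cells, fewer cells of a type and less RNA per cell cannot be told apart. The T cell marker list rose beside it in 12 of 12 genes (median log2 fold change 1.15, summed level 1527 to 1542 CPM in spleen and 3284 to 3346 CPM in mLN), among them Lck (1.15) and Lat (1.40). The part of these cells in the rise of Rgs10 was not tested.

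Rgs1, known for damping chemokine responses of B and T cells and for its induction on activation (chromosome 1, 144242296 to 144249242), stood at 27.7, 23.2 and 27.8 CPM in spleen and at 43.4, 45.1 and 42.2 CPM in mLN. The tissues did not overlap (26.2 ± 2.61 and 43.6 ± 1.46 CPM, SD, n = 3 each). Its log2 fold change was 0.73 (SE 0.0822, edgeR adjusted p = 5.16e-10). A list of immediate-early and stress genes, which respond both to stimulation and to handling of cells, moved with it: 8 of 10 rose (Junb by 0.91) and 1 fell (Btg2, -0.14), with a summed level of 1101 to 1112 CPM in spleen and 1729 to 1766 CPM in mLN. The T cell list rose as well, in 12 of 12 genes. The part of either list in the rise of Rgs1 was not tested.

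Rgs3, which occurs in long and short protein forms (chromosome 4, 62559847 to 62704001), was at 93.4, 92.8 and 98.5 CPM in spleen and at 139, 131 and 145 CPM in mLN. The groups were well apart (94.9 ± 3.15 and 138 ± 7.09 CPM, SD, n = 3 each), with a log2 fold change of 0.54 (SE 0.0450, edgeR adjusted p = 1.63e-13). Rgs14, a multidomain RGS protein that also binds Ras-family and inactive G alpha proteins (chromosome 13, 55369732 to 55384687), differed least among the called members. It was at 96.2, 91.9 and 85.5 CPM in spleen and at 102, 107 and 106 CPM in mLN. Those ranges did not overlap, though only a few CPM separated them, and the log2 fold change was 0.21 (SE 0.0490, edgeR adjusted p = 0.000497).

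Rgs18, an RGS protein of platelets and megakaryocytes that is also found in myeloid and progenitor cells (chromosome 1, 144752683 to 144775435), had few counts. It was at 8.80, 8.59 and 9.27 CPM in spleen, on 153, 141 and 155 counts, and at 2.27, 2.19 and 2.19 CPM in mLN, on 34, 39 and 27 counts. The log2 fold change was -2.0 (SE 0.213, edgeR adjusted p = 1.36e-10), and Rgs18 remained detected in each mLN library. Of 12 megakaryocyte and platelet markers, 5 were tested, 3 lower and 1 higher, and Ppbp, Gp9, Treml1 and Clec1b had no counts in mLN, where 3 counts in a library would be 0.169 to 0.243 CPM. Itga2b fell from 9.34 to 1.83 CPM. The summed level of that list was 73.2 to 78.5 CPM in spleen and 106 to 116 CPM in mLN, mostly from the integrin gene Itgb3 (58.1 ± 1.6 and 107 ± 4.90 CPM, SD, n = 3 each), which other leukocytes also express.

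Marker lists of several other cell types moved, in most of their genes, in the same direction as Rgs18. Neutrophil markers fell in 10 of 10 genes (summed level 1382 to 1413 CPM in spleen and 19.5 to 19.9 CPM in mLN), and progenitor markers in 7 of 7 (282 to 289 and 5.59 to 8.74 CPM), where Elane, Ctsg and Ms4a3 had no mLN counts. Ngp and Ltf were the most abundant neutrophil genes, at 363 and 331 CPM in spleen and 0.193 and 0.0715 CPM in mLN. Among progenitor genes Mpo fell from 178 to 0.281 CPM, Elane from 31.0 CPM to no counts, and Kit, which fell least, from 26.7 to 6.47 CPM. Monocyte markers fell in 5 of 7 genes and rose in 2 (565 to 592 and 524 to 540 CPM), with Ly6c2 at 0.74 and Csf1r at -0.21. Basophil and mast cell markers fell in 6 of 6 genes (85.8 to 87.3 and 1.35 to 1.67 CPM), with Ms4a2 at no counts in mLN. In that list Prss34 fell from 43.8 to 0.131 CPM, and Mcpt8 from 20.3 to 0.111 CPM, where 5, 0 and 0 counts in the mLN libraries made its log2 fold change -7.42, or -11.36 without mLN replicate 1. The part of any of these cells in the fall of Rgs18 was not tested.

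Rgs16, induced on activation of T cells and other leukocytes (chromosome 1, 153740349 to 153745468), was at 18.6, 20.04 and 19.3 CPM in spleen and at 11.5, 11.7 and 10.9 CPM in mLN. Every spleen library was above every mLN library (19.3 ± 0.737 and 11.3 ± 0.439 CPM, SD, n = 3 each). Its log2 fold change was -0.76 (SE 0.119, edgeR adjusted p = 7.71e-07). B cell markers fell beside it in 10 of 10 genes, with a median log2 fold change of -0.82 and a summed level of 6634 to 6779 CPM in spleen and 3837 to 3911 CPM in mLN. Cd22 (-0.67) was its most abundant gene. Plasma cell markers fell in 6 of 7 genes, with Jchain at -2.0 and Xbp1 at -0.74 (1015 to 1025 CPM in spleen and 409 to 425 CPM in mLN). The immediate-early and stress list moved the other way, with 8 of 10 genes higher in mLN. The part of either cell type, or of that list, in the fall of Rgs16 was not tested.

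Rgs2, which acts with preference on G alpha q (chromosome 1, 143999338 to 144004161), measured 62.7, 66.5 and 66.1 CPM in the spleen libraries against 49.6, 57.3 and 52.7 CPM in those of mLN. The ranges did not overlap, and the log2 fold change was -0.29 (SE 0.0646, edgeR adjusted p = 0.000250). With an offset for the effective length of each library the log2 fold change was -0.083 (edgeR adjusted p = 0.655), so this call rests on counts not corrected for length. Rgs19, also called GAIP and widely expressed (chromosome 2, 181688419 to 181693977), was at 88.8, 87.2 and 91.4 CPM in spleen and at 89.3, 85.7 and 84.8 CPM in mLN. Its groups overlapped, with a log2 fold change of -0.04 (SE 0.050, edgeR adjusted p = 0.535). CPM did not overlap between the tissues for 7 of the 8 members, against 52.9% of all genes tested.

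The remaining marker lists are given by their counts and by the genes with the highest mean CPM over all 6 libraries, an order that can differ within a tissue. Erythroid genes fell in 9 of 9 (Hbb-bs -6.66, Hba-a1 -6.76), conventional dendritic cell genes in 7 of 8 (Sirpa -0.52, Itgax -0.95) and macrophage genes in 4 of 8 (Adgre1 -1.37, Cd68 -0.69), while C1qa (0.32), C1qb (0.24) and C1qc (0.17) were not called. NK cell genes fell in 6 of 8 and rose in 1 (Prf1 -0.31, Nkg7 0.28). Migratory dendritic cell genes rose in 4 of 5 (Fscn1 3.28, Relb 0.04 and not called) and regulatory T cell genes in 5 of 6 (Tnfrsf18 0.34, Ikzf2 -0.38). Plasmacytoid dendritic cell genes rose in 3 of 6 and fell in 2 (Pacsin1 0.39, Tcf4 -0.98), and follicular helper T cell genes rose in 2 of 6 and fell in 2 (Icos 1.08, Cxcr5 -0.60). Stromal and endothelial genes, which a sort for CD45 should leave out, summed to 14.2 to 18.9 CPM in spleen and 6.67 to 9.07 CPM in mLN, with 2 of 4 lower (Vwf -2.43, Epcam -0.37 and not called).

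**Figure D2:**
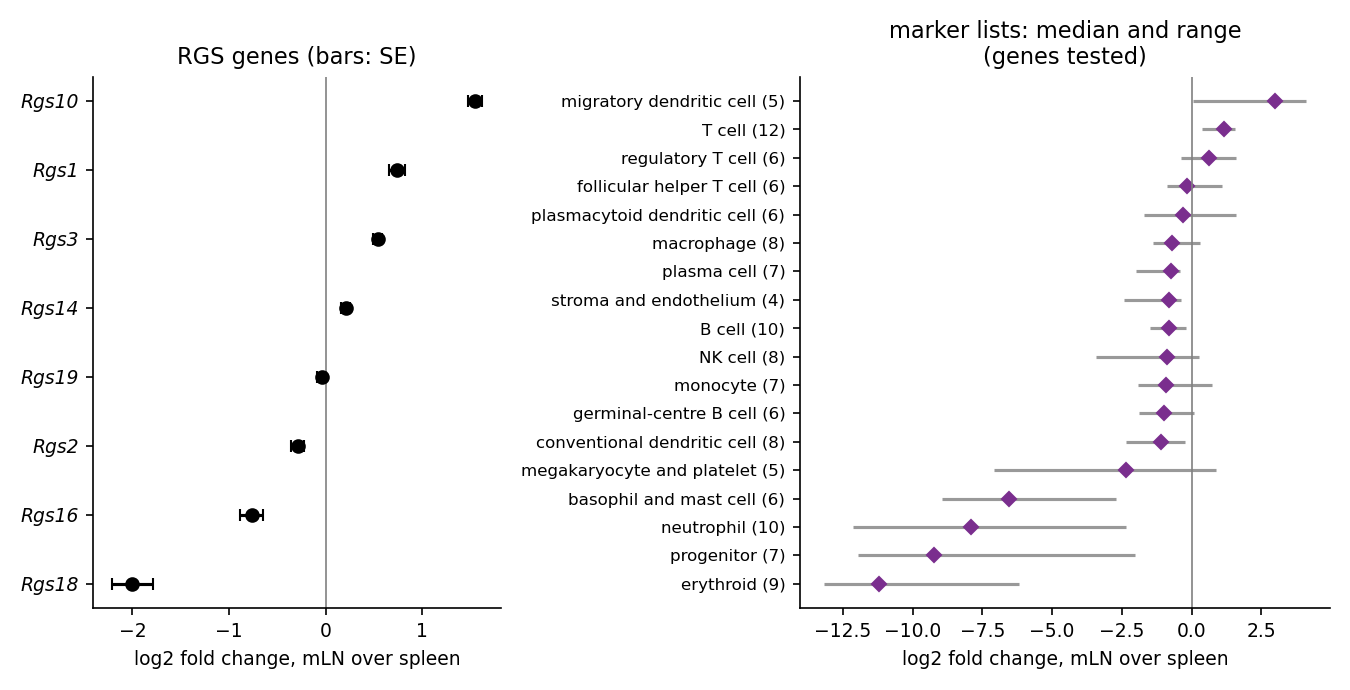
Left, log2 fold change of each RGS gene, mLN over spleen, with its SE. Right, the median (diamond) and range (line) of the log2 fold changes in each marker list, with the number of genes tested in brackets. The members span -2.0 to 1.55, while list medians run from -11.20 for erythroid to 2.98 for migratory dendritic cell markers.

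The 250 bases before the annotated start are shown for the largest rise, Rgs10, and for Rgs2 and Rgs16, the members that fell and have an entry in the promoter table. RefSeq on GRCm38.p6 gave entries for 5 of the 8 members. Each sequence is written 5′ to 3′ on the strand of its gene, Rgs10 at chr7:128418173-128418422 (minus strand), Rgs16 at chr1:153740103-153740352 (plus strand) and Rgs2 at chr1:144004150-144004399 (minus strand). Capitals mark matches on either strand to 3 promoter motifs, the GC box (GGGCGG), the CCAAT box (CCAAT) and the TATA box (TATAAA), or to the cyclic AMP response element (TGACGTCA).
Rgs10: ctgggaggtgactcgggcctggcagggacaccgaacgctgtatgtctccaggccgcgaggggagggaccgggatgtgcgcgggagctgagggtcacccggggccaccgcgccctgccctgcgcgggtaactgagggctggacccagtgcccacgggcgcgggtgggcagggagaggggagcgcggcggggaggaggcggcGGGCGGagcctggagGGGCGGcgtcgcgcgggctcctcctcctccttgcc
Rgs16: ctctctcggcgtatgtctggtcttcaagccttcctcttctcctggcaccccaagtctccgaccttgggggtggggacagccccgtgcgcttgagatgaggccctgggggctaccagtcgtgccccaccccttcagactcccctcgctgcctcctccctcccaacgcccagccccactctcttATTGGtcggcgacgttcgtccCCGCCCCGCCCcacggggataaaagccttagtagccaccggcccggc
Rgs2: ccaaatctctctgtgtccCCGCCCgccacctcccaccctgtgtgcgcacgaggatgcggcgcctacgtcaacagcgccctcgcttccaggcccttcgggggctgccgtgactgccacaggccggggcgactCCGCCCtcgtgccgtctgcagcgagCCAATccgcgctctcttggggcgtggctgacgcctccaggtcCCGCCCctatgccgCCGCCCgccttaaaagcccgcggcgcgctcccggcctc
The Rgs10 window held 2 GC boxes and no CCAAT box, the Rgs16 window 2 GC boxes and 1 CCAAT box, and the Rgs2 window 4 GC boxes and 1 CCAAT box. No TATA box or full response element was matched in these 3 windows. The minus-strand gene Rgs10 extends upstream of its window in GENCODE M21, through another transcript. Exons of the same gene in GENCODE M21 covered 12 bases of the Rgs2 window, 4 of the Rgs16 window and 1 of the Rgs10 window. Among 32817 promoter windows of this length, 32.7% held a GC box, 33.8% a CCAAT box, 12.4% a TATA box and 1.55% the response element. G and C made up 76.4% of the Rgs10 window, 66.4% of that of Rgs16 and 72.4% of that of Rgs2, against a median of 52.4% over all windows. The windows not printed differed. Those of Rgs3 held 48.4% and 56.8% G and C, each with 1 TATA box match. Those of Rgs19 held 64.8%, 74.8% and 54.4%. These matches are a description of letters and were not linked to any measured binding.

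Levels can be compared between genes only per length, for which the deposited TPM was used. In spleen Rgs19 was the most abundant member at 128 ± 6.99 TPM (SD, n = 3), above all others in every library. Rgs2 (67.5 ± 6.80 TPM) and Rgs14 (64.9 ± 4.64) followed and overlapped, then Rgs3 (57.6 ± 1.94) and Rgs10 (53.6 ± 3.89), which overlapped as well. Rgs1 was at 31.7 ± 5.34 TPM, Rgs16 at 13.5 ± 0.511 and Rgs18 at 7.28 ± 0.293, each apart from its neighbours. In mLN Rgs10 stood first at 152 ± 8.11 TPM (SD, n = 3), ahead of Rgs19 at 114 ± 6.30 in every library. Rgs3 (76.5 ± 3.54 TPM) came next without overlap, and Rgs14 (72.4 ± 0.402) and Rgs2 (61.4 ± 10.3) overlapped. Rgs1 (49.4 ± 2.17 TPM), Rgs16 (7.67 ± 0.300) and Rgs18 (1.76 ± 0.0379) kept the last places in that order.

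Together the 8 genes made up 434, 420 and 420 TPM in the spleen libraries and 542, 533 and 529 TPM in the mLN libraries. They held 92.9 ± 1.47% of the TPM of all 21 RGS-named genes in the spleen libraries and 94.3 ± 0.557% in those of mLN (SD, n = 3 each). The share of Rgs10 in the sum of the 8 went from 12.6 ± 0.693% in spleen to 28.4 ± 1.17% in mLN, and that of Rgs19 from 30.3 ± 1.58% to 21.3 ± 1.04%. Rgs3 took a similar share in both, 13.6 ± 0.686% and 14.3 ± 0.735%, with overlapping libraries. Shares sum to a whole, so a larger share of one gene lowers the others.

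**Figure D3:**
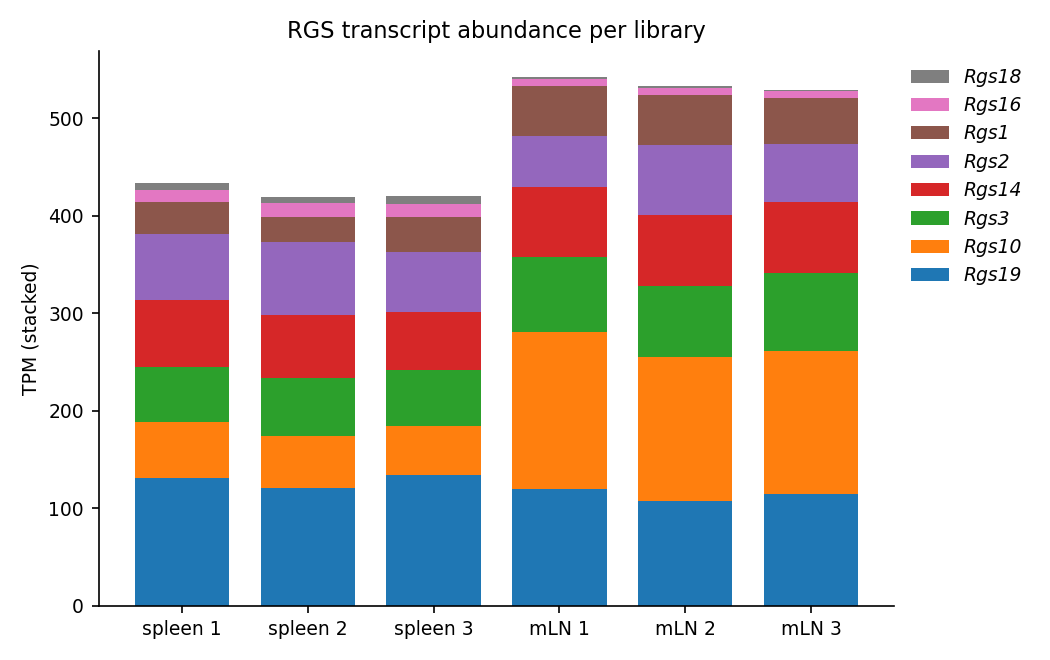
Deposited TPM of the 8 RGS genes, stacked for each library. The stacks reach 420 to 434 TPM in spleen and 529 to 542 TPM in mLN, and the Rgs10 layer grows from 50.1 to 57.8 TPM in spleen to 146 to 161 TPM in mLN.

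Each member was then set against the summed CPM of the T cell list and of the B cell list in the same library, a ratio that library scaling does not change and that was added after the data were seen. The T cell to B cell sum itself was 22.7% to 23.0% in spleen and 84.6% to 87.2% in mLN. Rgs10 was the one member whose ratio to the T cell sum was higher in mLN: 1.59%, 1.52% and 1.46% in the spleen libraries and 2.17%, 2.04% and 1.98% in the mLN libraries. That is a difference of 0.44 on the log2 scale. Single T cell markers had log2 fold changes of 0.38 to 1.57, a range that holds the 1.55 of Rgs10. A higher ratio to the sum thus does not set Rgs10 apart from every T cell marker. Rgs1 and Rgs3 rose in CPM but by less than the T cell sum, with log2 ratios lower in mLN by -0.37 and -0.57, and Rgs14 by -0.90. In all of these the libraries of the tissues did not overlap.

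Against the B cell sum, 6 of the 8 members were higher in mLN, from 0.50 for Rgs2 to 2.34 for Rgs10 on the log2 scale. That sum itself was lower in mLN, with 6634 to 6779 CPM in spleen and 3837 to 3911 CPM in mLN. Rgs19, with about the same CPM in both tissues, is thus higher against it (0.75), as is Rgs2, which fell in CPM. Rgs16 was the exception with overlapping tissues. It made up 0.274%, 0.296% and 0.291% of the B cell sum in spleen and 0.299%, 0.302% and 0.277% in mLN, a log2 difference of 0.03 (exact two-sided permutation p = 0.5). Rgs18 was lower against both sums, by -1.21 against the B cell sum and by -3.11 against the T cell sum on the log2 scale. For the ratios without overlap the exact permutation p was 0.1, the smallest that 3 against 3 allows. These ratios use markers as a yardstick and do not measure in which cells an RGS gene is expressed.

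**Figure D4:**
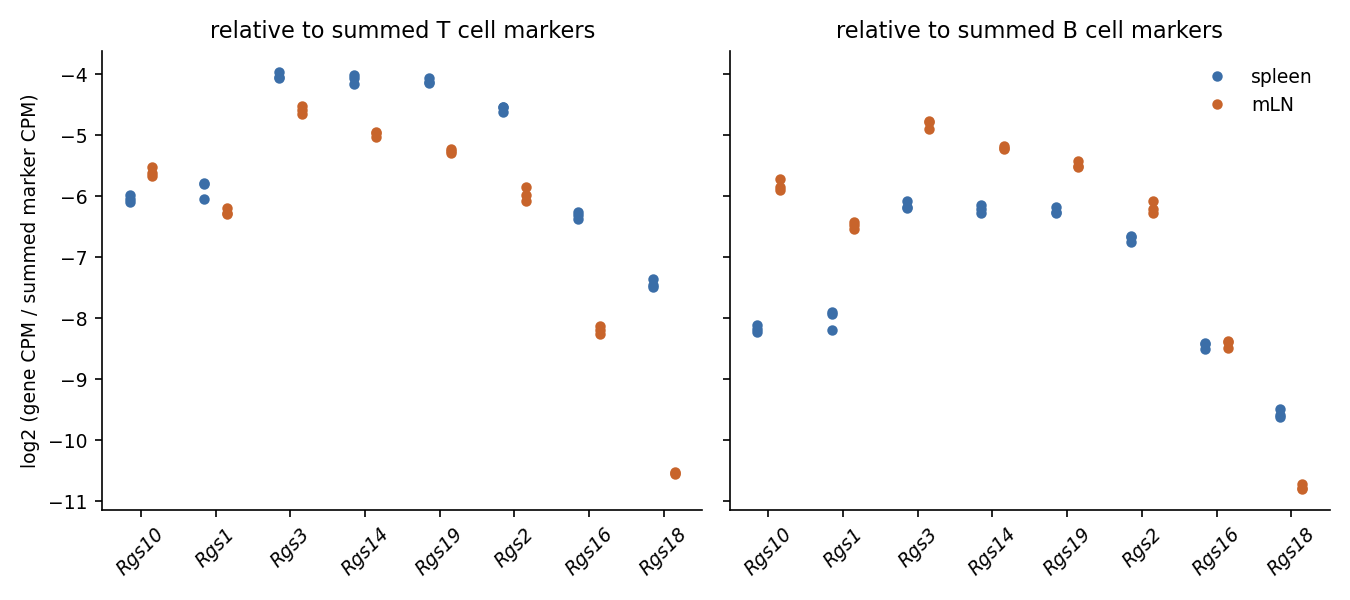
Log2 of each RGS gene's CPM over the summed CPM of the T cell markers (left) or B cell markers (right), 1 point per library, spleen in blue and mLN in orange. Rgs10 is the gene whose mLN points lie above its spleen points on the left, and Rgs16 the gene whose points overlap on the right.

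On chromosome 1, Rgs2, Rgs13, Rgs1, Rgs21 and Rgs18 lie in a row on the minus strand within 776.1 kb, the 5 protein-coding genes that GENCODE M21 places there. Neighbours in this row moved differently. Rgs1 rose (log2 fold change 0.73), while Rgs2 (-0.29), Rgs13 (-1.06) and Rgs18 (-2.0) fell, and Rgs21 had no counts in any library. The count of Rgs1 was 44.1%, 34.9% and 42.1% of that of Rgs2 in the spleen libraries and 87.6%, 78.8% and 80.0% in the mLN libraries. This within-library ratio differed by 1.03 on the log2 scale without overlap (exact two-sided permutation p = 0.1, the smallest possible).

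RSEM weights the length of a gene by the estimated share of its transcripts, so a shift in length is a shift in that estimate. All transcripts listed for the 8 members in the deposited tables were found in GENCODE M21. The length of Rgs3, with 17 transcripts of 418 to 4698 bases, was 2696, 2525 and 2770 bases in spleen and 2836, 2787 and 2809 bases in mLN. It was the one member whose length did not overlap between tissues. Its effective length, corrected for fragment size, was 154.6 bases longer in mLN (2442 ± 125 and 2596 ± 26.0 bases, SD, n = 3 each, exact two-sided permutation p = 0.1, adjusted p = 0.267 over the 8 members). Rgs16 and Rgs18 have 1 transcript each and a fixed length, and their effective lengths differed by 7.17 bases from fragment size alone. Their p was the same as that of Rgs3 (exact two-sided permutation p = 0.1, adjusted p = 0.267). This p therefore does not by itself show a shift in transcript share. Rgs2, with 4 transcripts, varied most between libraries, from 1349 to 1840 bases and with overlap between tissues.

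Genes overlapping the members were themselves assigned few counts, which does not show how many shared reads went to the members. The antisense gene Gm11209 within Rgs3 had at most 2 counts in a library, Gm28513 opposite Rgs16 at most 6, and Gm15503 within Rgs10, on the same strand, at most 17.

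Among the 13 other RGS-named genes, 5 had enough counts to be tested, of which 1 rose and 4 fell. Rgs11, of the class that pairs with G beta 5, rose from 6.07 ± 1.3 to 14.6 ± 0.942 CPM (log2 fold change 1.26, edgeR adjusted p = 6.89e-09). Rgs12, a large multidomain relative of Rgs10 and Rgs14, fell from 25.6 ± 1.88 to 13.8 ± 2.62 CPM (-0.88, edgeR adjusted p = 2.17e-08). With the length offset that call was lost (-0.65, edgeR adjusted p = 0.104). Rgs8 (-2.09), Rgs9 (-1.97) and Rgs13 (-1.06), the last known from germinal-centre B cells, were at 2.44 CPM or less in both tissues. The calls of Rgs9 and Rgs13 were lost with the length offset, at log2 fold changes of -1.36 and -1.08 (edgeR adjusted p = 0.179 and 0.0593), so that the fold of Rgs13 was about as large as without it. Without mLN replicate 3 the log2 fold change of Rgs8 was -3.01. The call of Rgs9 was also lost without spleen replicate 2, and that of Rgs13 without spleen replicate 1 or 3 or mLN replicate 3. Of 6 germinal-centre markers 4 fell beside Rgs13, though the most abundant, S1pr2 (-0.26) and Fas (0.10), were not called. S1pr2 was called lower under 3 alternatives. These were the length offset (-0.39, edgeR adjusted p = 0.0361), library totals alone (-0.31, edgeR adjusted p = 0.0238) and leaving out spleen replicate 2 (-0.33, edgeR adjusted p = 0.0385). Rgs4, Rgs5, Rgs7, Rgs21 and Rgs22 had no counts in any library. Rgs6, Rgs17 and Rgs20 had at most 8 counts in a library.

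The rest of the pathway was described with lists of G proteins, regulators, effectors and receptors, which together with the 13 RGS-named genes held 119 genes. Of 99 tested, 27 rose and 42 fell, or 69.7%, with a median log2 fold change of -0.13. Of all genes tested 45.5% were called, 21.8% higher and 23.8% lower in mLN, with a median of -0.00179. These lists were chosen with earlier results of these data known, and the counts below are to be read beside those shares. Among 11 tested G alpha genes, a family that includes the substrates of RGS proteins but is not limited to them, 2 rose and 7 fell. Among genes of at least 10 CPM in the higher tissue the falls were largest for Gna15 (-0.96), Gnaq (-0.56) and Gna12 (-0.45), and the rises small for Gnai3 and Gna13 (0.13 each). With the length offset Gnaq (-0.45), Gnai3 (0.13) and Gna13 (0.030) were not called; the fold of Gna13 shrank, while that of Gnai3 was about as large with a larger SE. With library totals as the only scaling Gnai3 (0.077) and Gna13 (0.076) were not called either. Without spleen replicate 2 Gnai3 was not called (edgeR adjusted p = 0.0886). Gnai2, the main inhibitory G alpha gene of leukocytes, fell slightly, from 702 ± 21.3 CPM in the spleen libraries to 658 ± 9.76 CPM in those of mLN (-0.09, edgeR adjusted p = 0.0042).

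Of 10 tested G beta and gamma genes, 6 fell and 0 rose, among them Gng12 (-0.55), Gngt2 (-0.50) and Gng10 (-0.40). The call of Gng12 was lost without spleen replicate 3 (edgeR adjusted p = 0.0652). In the list of receptor kinases and arrestins, which end signalling at the receptor, 2 of 7 rose and 4 fell. Arrb2, an arrestin, rose by 0.74 and Grk6 by 0.20, while Grk3 (-1.10), Grk5 (-0.67) and Arrb1 (-0.25) fell. With the length offset the fold of Arrb1 was about as large (-0.26) but not called (edgeR adjusted p = 0.0696). Of 7 other regulators tested, Gpsm3 rose (0.21), 2 fell, and the fall of Ccdc88a (-0.62) was not called with the length offset (-0.13).

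Among 18 tested effectors 7 rose and 3 fell. Adcy6, an adenylyl cyclase, rose from 38.7 ± 1.27 to 100.5 ± 2.19 CPM (log2 fold change 1.38), and Pik3r5 (0.56) and the exchange factor gene Arhgef1 (0.39) rose too, while Arhgef12 fell (-0.58). Of 41 leukocyte receptors 14 rose and 16 fell. The homing receptors Ccr9 (1.59), Ccr4 (1.47) and Ccr7 (1.03) made the largest rises, and Cxcr2 (-5.32), S1pr5 (-3.44) and S1pr3 (-3.02) the largest falls, among genes of at least 10 CPM in the tissue where they were higher. Ccr4 was at 4.14 CPM in spleen, and Cxcr2, S1pr5 and S1pr3 were at 0.489, 2.46 and 2.58 CPM in mLN, so these 4 met that limit through 1 tissue.

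**Figure D5:**
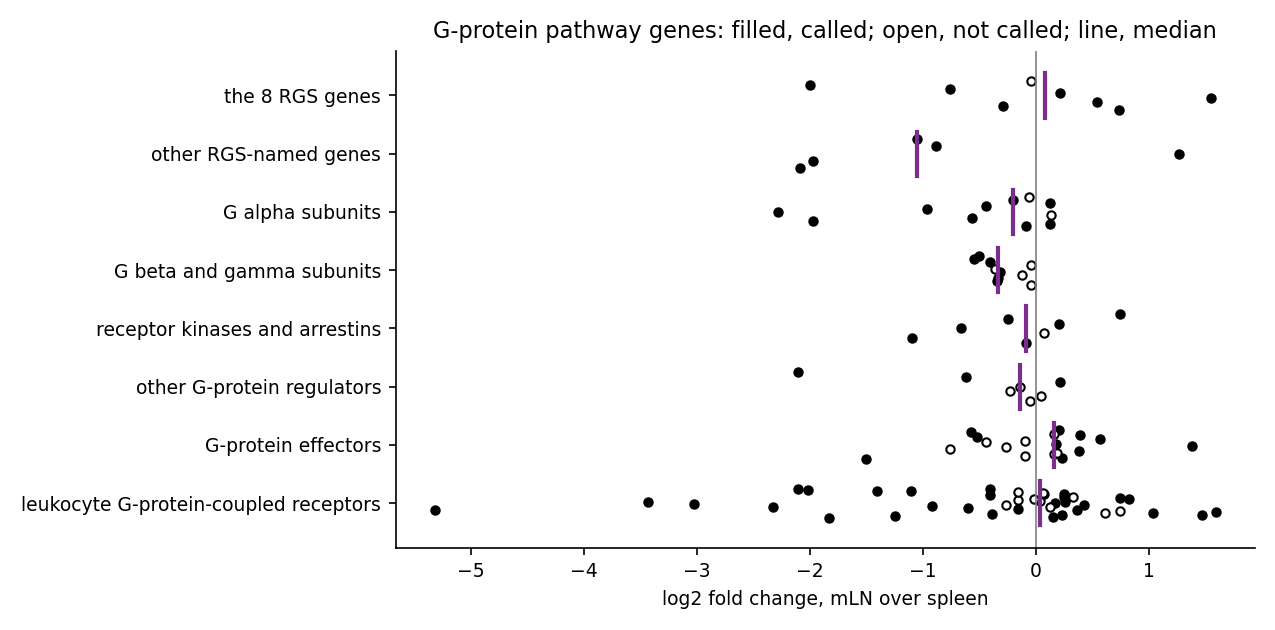
Log2 fold change, mLN over spleen, of each tested gene in the 8 RGS genes and in the 7 lists of the pathway; filled points were called, open points were not, and the line is the list median. Medians run from -1.06 for the other RGS-named genes to 0.16 for the effectors.

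The genes whose profiles over the 6 libraries were most like each member were found by distance of centred log2 CPM among 8972 protein-coding genes of at least 10 CPM. For Rgs10 these were Apol7e (distance 0.0758), Arl4c (0.152) and Prkcq (0.172), a T cell kinase gene, with log2 fold changes of 1.5, 1.53 and 1.48. For Rgs1 they were Amigo2, Mmp14 and Hcst, and for Rgs3 Esf1, Ppp1r13b and Esyt2. Rgs16 was nearest to Xbp1 (distance 0.0583), a transcription factor gene of secretory cells, then Tmem163 and Irf5. Rgs18 was nearest to Jchain (0.104), Hmgb3 (0.121) and the monocyte marker Ace (0.157), with log2 fold changes from -2.0 to -1.92. Rgs2 was nearest to Ralgds, Camk2d and Hras, Rgs14 to AI987944, Ssbp4 and Setd3, and Rgs19 had Zdhhc17 and Pgam1 among its nearest genes. The 6 libraries come from 2 tissues, so genes at a small distance have similar fold changes by construction. The likeness is given as a description and does not show that the genes share a cell type.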

How the data were processed

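The deposited gene tables hold 1 library each. Per the submitters' processing notes STAR, RSEM and the build mm10 were used; for their versions, the annotation and the strand setting the sources used here give nothing. The authors' expected counts, which split shared reads and need not be whole, were rounded and tested. The deposited TPM, scaled by length to 1000000 in each library, served only for levels between genes, and the deposited lengths (other values, in bases) for transcript mix. Symbols and coordinates are from GENCODE M21 (GRCm38, also called mm10).

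Genes passing filterByExpr by tissue (14427) were scaled with TMM and tested in R 4.3.3 with edgeR 4.0.16 (robust quasi-likelihood fit, F-test), with tissue as the only term. SE was taken from the F statistic. Alternatives used limma 3.58.1, DESeq2 1.42.0, other scalings and filters, a length offset, a replicate block and leaving out each library. The main fit was run on simulated data with known answers, with differences set in 50 genes of each size. It recovered 25 at 1.25-fold, 30 at 1.5-fold, 38 at 2-fold and 45 at 4-fold, with 14 false calls in a run of 14427 genes. A run with as large a part of genes changed as the 45.5% called in the real data was not tested. Whether the share of false calls in the real data stays under the 0.05 threshold was not tested either.

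The members and lists were chosen with earlier results of these data known. Named from each pathway list were called genes of at least 10 CPM in the higher tissue, up to 3 that rose most and 3 that fell most, and for each member the 3 most alike protein-coding genes, with Gnai2 and low RGS-named genes added after their values were seen. Up to 2 genes of highest mean CPM over the 6 libraries were named from each marker list, with genes at no counts and C1qa, C1qb and C1qc added after their values were seen. A few genes that these rules name are not reported here. Likeness used a prior count of 2.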

Additional observations from a re-analysis of the deposited data

How the results depend on the processing

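The counts of called members, 4 higher and 3 lower, were the same under 15 alternatives except the effective-length offset, where Rgs2 was not called (log2 fold change -0.083, edgeR adjusted p = 0.655) and 2 were lower. The offset carries the spread of estimated lengths into each value. Leaving out single libraries gave log2 fold changes of 1.5 to 1.58 for Rgs10, 0.65 to 0.78 for Rgs1, 0.51 to 0.58 for Rgs3, 0.16 to 0.25 for Rgs14, -2.02 to -1.97 for Rgs18, -0.79 to -0.73 for Rgs16, -0.35 to -0.24 for Rgs2 and -0.06 to -0.02 for Rgs19.

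Differences in effective length kept their sign without each library for 5 members. For the other 3, leaving out single libraries gave -23.4 to 73.7 bases for Rgs1, -10.7 to 6.21 for Rgs10 and -14.7 to 33.1 for Rgs14. By the uncorrected length Rgs10 differed by -7.14 bases in place of 0.0367. Relb had a log2 fold change of 0.04, which was -0.010 with library totals alone and -0.017 to 0.088 without single libraries, the lowest without mLN replicate 3.

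Over all genes, 4686 (32.5%) were called with the length offset in place of 6569 (45.5%), and with library totals alone 39.2% of called genes were higher in mLN in place of 47.8%. Vwf and Ltf moved by over 1.5 times with the length offset (log2 fold changes -1.81 and -11.17), and Ltf without mLN replicate 1 (-12.98) or 2 (-11.46). Mcpt8 also moved, to -8.09 with limma-voom and -6.74 without mLN replicate 2.

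The labels do not say whether libraries with the same replicate number are paired. Same-numbered libraries had correlations of deviations of 0.0267, 0.0275 and -0.0081. For spleen replicates 1 and 2 these were the highest, while spleen replicate 3 correlated best with another number. Correlations this small, from 3 libraries per tissue, cannot decide whether the samples were paired. With the replicate block 6455 genes were called in place of 6569, and Rgs10 had a log2 fold change of 1.55, and no member changed its call. Depth limits Rgs8, Rgs9 and Rgs13, which had 2 to 51 counts in a library.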
